A study of Mus musculus with 6 samples.

Results

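The mevalonate pathway enzymes are a chain of cytosolic and microsomal proteins that build squalene, the precursor of cholesterol, out of acetyl-CoA. The 9 genes described here, Acat2, Hmgcs1, Mvk, Pmvk, Mvd, Idi1, Fdps, Ggps1 and Fdft1, were taken by name from the 49212 genes of the count tables, and all 9 were found and passed the filter on low counts. The reduction step between Hmgcs1 and Mvk is not among them. Liver RNA was sequenced from 3 libraries labelled Placebo and 3 labelled DHT, from animals of the C57BL/6J strain at 15 weeks of age. The DHT animals carried a pellet that releases dihydrotestosterone, an androgen, and serve as a model of PCOS, polycystic ovary syndrome. What the placebo consisted of is not stated. The labels give no sex, no time of collection and no sequencing batch, and do not say whether the libraries of a group came from separate animals, so the p-values cover the spread among these libraries, which may be technical. The title of the study names androgen, the hepatic clock and fatty liver.

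In the liver the pathway supplies cholesterol for lipoproteins and bile acids, and its intermediates feed the prenylation of proteins and the synthesis of ubiquinone and dolichol. Its genes are textbook targets of the transcription factor SREBP-2, which INSIG proteins hold in the endoplasmic reticulum when sterols are plentiful. SREBP-2 binds sterol regulatory elements in promoters, usually next to sites for the factors NF-Y and Sp1. Synthesis in rodent liver follows feeding and the time of day.

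Total counts lay between 41336844 and 60209462 per library, so that 3 counts in 1 library were worth at most 0.0726 CPM, the count per 1000000 counts of the library. Ggps1 had the fewest counts of the 9 genes, 160 to 376 per library. Every pair of libraries differed by more than sampling noise (chi-square per degree of freedom at least 106.75, for DHT 1 against DHT 2). Placebo 3 stood at 698 and 686 from placebo 1 and placebo 2, which stood at 238 from each other. Placebo 1 and placebo 2 stood at 372 to 563 from the libraries labelled DHT. Over all genes placebo 3 thus differed from its own group more than those did from the other group. Mitochondrial genes took 3.23 to 6.83% of counts in placebo and 6.44 to 8.47% in the libraries labelled DHT. Transcripts of the Y chromosome summed to 145 to 169 CPM in the libraries labelled DHT and to 1.02 to 2.16 CPM in placebo. This signal, and any difference of sex between the groups that goes with it, cannot be told apart from the treatment label in any comparison. Hepatocyte markers (5 of 6 found) summed to 85928 to 125533 CPM in placebo and to 76623 to 90196 CPM in the libraries labelled DHT, in keeping with a liver sample. All 5 had a log2 fold change below 0 (median −0.63, lowest −0.72), and 1 had an unadjusted p under 0.05 in edgeR. Below 0 were also 8 of 8 stellate markers (median −0.67) and 7 of 8 endothelial markers (−0.37), but 1 of 8 Kupffer cell markers (0.073). Among 9 further marker lists for other cell types the adipocyte and adrenal lists held a called gene. With the replicate block the stellate, cholangiocyte, lymphocyte and erythroid lists each held 1 as well, namely Colec11, Krt19 and Cd3d lower and Alas2 higher. In that fit 10.7% of all genes tested were called, so 1 call in a list of this size is unremarkable. Of the cholangiocyte list, 3 of 5 tested genes had an unadjusted p under 0.05 with DHT lower, against 8.52% of all genes. As many had DHT below placebo in every library, against 6.27%. The median log2 fold change was −0.89 over the list, whose sum was 75.7 to 83.2 CPM in placebo and 54.4 to 109.6 CPM in the libraries labelled DHT. Of the adipocyte list, 1 of 5 genes could be tested and it rose: the list summed to 0.0664 to 0.170 CPM in placebo and to 4.59 to 59.97 CPM in the libraries labelled DHT. Nearly all of that was Cfd, a complement factor gene, while Lep was at 0 and Adipoq had at most 2 counts in any library. The adrenal list summed to 0.738 to 1.13 CPM in placebo and to 1.81 to 2.11 CPM in the libraries labelled DHT, with Cyp11b1 and Nr5a1 at 0 in all. Both tested genes of that list, Star and Cyp21a1, had DHT above placebo, and Cyp21a1 rose from 0 counts to 0.314 to 0.773 CPM (adjusted p = 0.036). The part of these markers in the results was not tested.

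Promoter sequences in RefSeq (GRCm38.p6) were available for 7 of the 9 genes, without Fdps and Fdft1. Shown are the 250 bases before the start site of Hmgcs1, the most abundant transcript of the chain, and of Mvk, Pmvk and Idi1, the 3 genes with the largest differences between the groups. Capitals mark matches to TCACNCCAC, the core of a sterol regulatory element, and to ATTGG, the NF-Y motif, on either strand. The windows, all on the plus strand, are chr13:119690101-119690350 for Hmgcs1, chr5:114444019-114444268 for Mvk, chr3:89454291-89454540 for Pmvk and chr13:8885356-8885605 for Idi1.
Hmgcs1: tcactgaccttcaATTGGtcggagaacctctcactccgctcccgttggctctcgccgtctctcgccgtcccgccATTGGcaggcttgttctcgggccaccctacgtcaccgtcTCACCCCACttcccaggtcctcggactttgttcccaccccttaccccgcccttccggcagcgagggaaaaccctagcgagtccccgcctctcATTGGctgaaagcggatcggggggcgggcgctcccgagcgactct
Mvk: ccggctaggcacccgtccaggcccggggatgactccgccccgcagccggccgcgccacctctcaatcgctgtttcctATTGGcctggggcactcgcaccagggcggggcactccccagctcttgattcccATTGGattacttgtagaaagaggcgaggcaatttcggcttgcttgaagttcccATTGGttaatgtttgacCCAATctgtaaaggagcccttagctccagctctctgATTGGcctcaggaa
Pmvk: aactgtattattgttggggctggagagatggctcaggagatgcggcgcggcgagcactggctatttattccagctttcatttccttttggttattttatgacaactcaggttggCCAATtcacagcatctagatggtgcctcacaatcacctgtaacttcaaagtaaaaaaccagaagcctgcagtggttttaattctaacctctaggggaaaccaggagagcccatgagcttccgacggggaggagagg
Idi1: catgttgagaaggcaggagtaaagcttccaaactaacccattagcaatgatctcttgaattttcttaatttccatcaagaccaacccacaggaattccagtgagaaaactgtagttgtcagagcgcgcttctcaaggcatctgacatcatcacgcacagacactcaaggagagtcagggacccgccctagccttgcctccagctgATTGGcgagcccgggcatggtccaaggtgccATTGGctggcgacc

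The sterol element core was found in 1 of the 7 genes, Hmgcs1, at position −137 from the start site, against 1.44% of all 27025 genes with a promoter entry of the same 300 bases. The NF-Y motif was found in 6 of 7, all but Acat2, against 41.1% of genes. Pmvk counts through the entry printed above, as its second entry (chr3:89459321-89459620) had 0 matches to any motif searched. Mvk had 5 such matches, at positions −173, −120, −67, −50 and −14 from the start site. The Sp1 motif GGGCGG was found in 5 of 7 (Acat2, Hmgcs1, Mvk, Mvd and Idi1) against 38.2% of genes. The E-box CACGTG was found in 0 of 7 against 8.09%. Both strands were searched, no motif contains another, and a match describes the letters of the window only.

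No gene of the chain passed edgeR's quasi-likelihood test at an adjusted p of 0.05. The count was 0 of 9 with DHT higher, against 0.952% of the 15126 genes tested, and 0 of 9 with DHT lower, against 0.701%. In either direction 1.65% of genes passed. All 9 log2 fold changes were below 0, against 51.9% of genes tested, and the median was −0.83, against −0.024 over all genes. The 5 hepatocyte markers were all below 0 as well, with a median of −0.63. At an unadjusted p under 0.05 there were 3 of 9 genes lower, Mvk, Pmvk and Idi1, against 8.52% of genes lower and 15.9% in either direction. DESeq2 called 2 genes lower, Mvk and Pmvk (background 3.73% lower, 3.29% higher and 7.02% in all), and limma voom called 0 of 9, where 2.24% of genes were lower. When the replicate number in the titles entered the fit as a block, 5 of 9 were called lower, namely Mvk, Pmvk, Idi1, Fdps and Fdft1, and 0 higher. In that fit 5.28% of all genes were called lower, 5.44% higher and 10.7% in all. The count rested on which numbers entered. Without both libraries numbered 1 it was 1 (Idi1), against 2.21% of genes lower. Without those numbered 2 it was 5, against 5.88%, and without those numbered 3 it was 3 (Mvk, Pmvk and Idi1), against 4.17%. In bulk tissue, fewer cells of a type and less RNA per cell cannot be told apart.

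The libraries labelled DHT did not form a uniform group for this pathway, although over all genes the widest gaps within a group were those of placebo 3. DHT 2 was the highest of the 3 in 8 of 9 genes, all but Ggps1, where 32.9% of all genes tested had DHT 2 on top. In 7 of 9 it exceeded both DHT 1 and DHT 3 by more than 1.5 times, against 4.12% of genes. DHT 2 was singled out after its values were seen, so these shares describe the pattern and do not test it. Summed over the 9 genes, the level per kilobase of exon was 537, 654 and 496 CPM per kilobase in placebo 1 to 3 and 231, 809 and 340 in DHT 1 to 3. The lowest and the highest of the 6 libraries thus both carried the DHT label, and placebo lay between them.

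**Figure D1:**
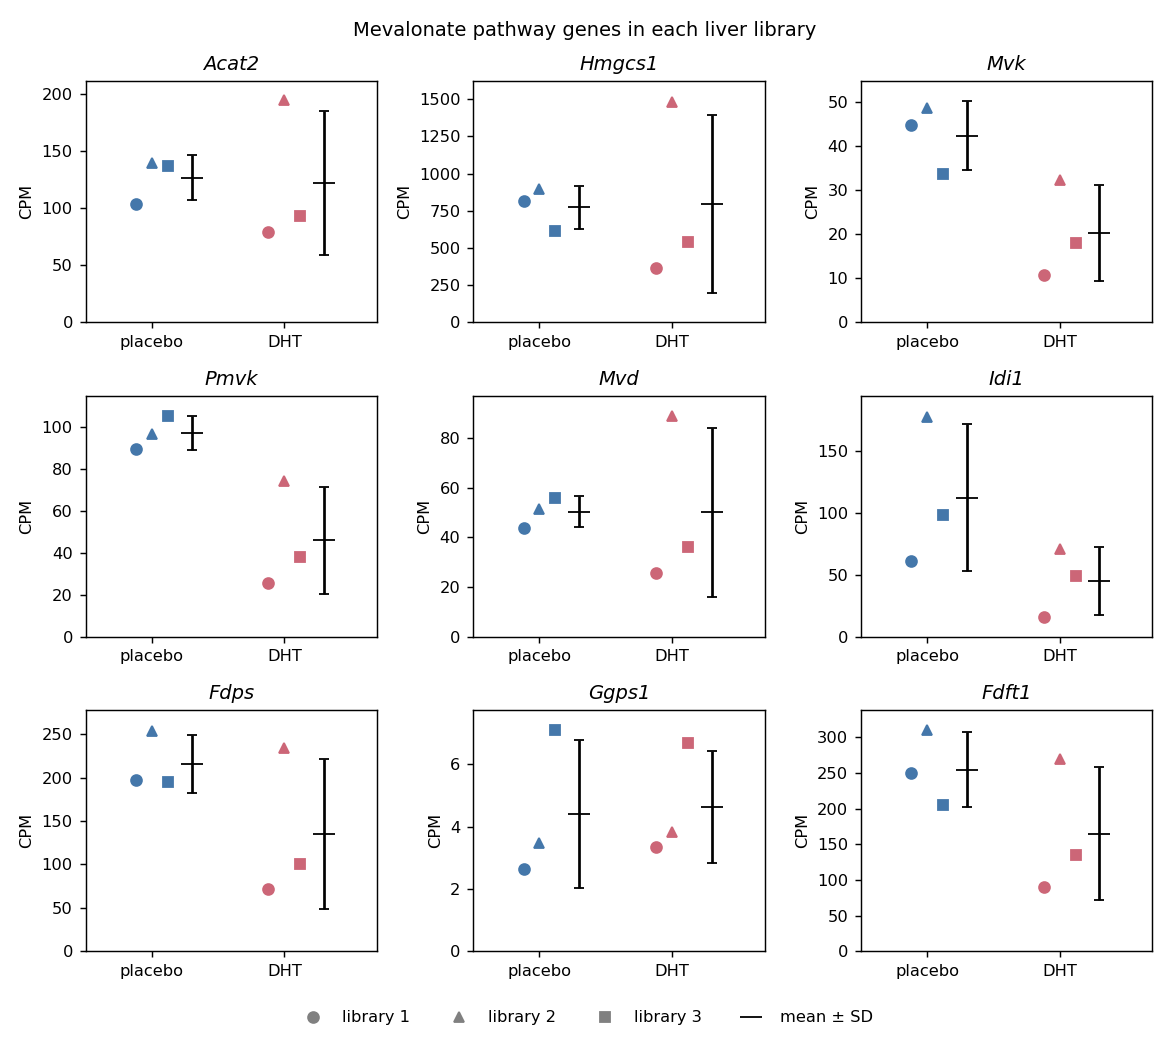
Level of each of the 9 genes (CPM of all gene counts, axes from 0) in the 3 placebo and 3 DHT libraries, with the mean and SD beside them (n = 3). DHT 2 (triangle) lies above DHT 1 and DHT 3 in every panel except that of Ggps1, and the groups are separate for Mvk and Pmvk.

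The chain starts with Acat2, the cytosolic thiolase that joins acetyl-CoA units (GRCm38 chromosome 17, 12942890 to 12960747). Acat2 had 104, 139 and 137 CPM in placebo and 78.7, 194 and 92.7 CPM in DHT 1 to 3. The groups overlapped, with DHT 2 highest of all and the other DHT libraries lowest. Its log2 fold change was −0.25 ± 0.37 (SE, adjusted p = 0.771). Of the 100-base windows of Acat2 transcripts, 28.9% also occur in transcripts of other genes, mostly its neighbour Acat3, so how reads were shared between these copies is uncertain. Acat3 had 122.6, 131 and 172 CPM in placebo and 248.9, 204 and 250.9 CPM in the libraries labelled DHT (log2 fold change 0.54 ± 0.26, adjusted p = 0.357).

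Hmgcs1 encodes the cytosolic HMG-CoA synthase (chromosome 13, 119690462 to 119708086). It had 814, 893 and 612 CPM in placebo. In DHT 1 to 3 it had 365, 1481 and 541 CPM. DHT 2 stood 4.06 times above DHT 1 and 1.92 times above the placebo mean, while DHT 1 and DHT 3 stood below every placebo library. The means, 773 ± 145 and 796 ± 600 CPM (SD, n = 3 each), were nearly equal because those libraries lay on opposite sides. The log2 fold change of −0.16 ± 0.50 (adjusted p = 0.909) changed sign without DHT 1 (0.18), without DHT 3 (0.065), with library size alone (0.042) and in the block fit without the libraries numbered 1 (0.044).

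Mvk encodes mevalonate kinase (chromosome 5, 114444269 to 114460591). It had 44.6, 48.7 and 33.7 CPM in placebo and 10.7, 32.2 and 17.9 CPM in DHT 1 to 3. All 3 libraries labelled DHT lay below all 3 of placebo, although DHT 2 came within reach of placebo 3. For Mvk the log2 fold change was −1.26 ± 0.39 (adjusted p = 0.181), and −1.37 with the replicate block (adjusted p = 0.000487). Over 19 alternatives the adjusted p ran from 2.77e-05 to 0.482, with 4 under 0.05, and the difference stayed below 0 in each. The lowest value came from the block fit without the libraries numbered 3, which left few libraries to estimate the spread.

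Pmvk encodes phosphomevalonate kinase, which adds the next phosphate (chromosome 3, 89454541 to 89469013). It had 89.3, 96.6 and 105 CPM in placebo and 25.3, 74.3 and 37.8 CPM in DHT 1 to 3. The groups did not overlap, and placebo was tight, with an SD of 7.90 CPM around a mean of 97.0, against 25.4 around 45.8 in the libraries labelled DHT. A log2 fold change of −1.28 ± 0.38 was estimated (adjusted p = 0.167), and −1.42 with the replicate block (adjusted p = 0.000312). It was called in 4 of 19 alternatives, over which the adjusted p ran from 9.53e-06 to 0.47. The lowest value came from the block fit without the libraries numbered 2, with the same limit. Of the 9 genes, Mvk and Pmvk were the 2 whose groups were separate with DHT lower, a pattern that 6.27% of all genes tested showed in CPM and 10.9% in TMM-scaled CPM. In CPM the groups were separate in either direction for 27.4%. No 100-base window of either gene's transcripts occurs in another gene.

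Mvd encodes mevalonate diphosphate decarboxylase, which forms isopentenyl diphosphate (chromosome 8, 122433601 to 122443422). It had 43.7, 51.6 and 55.9 CPM in placebo and 25.5, 88.9 and 35.9 CPM in DHT 1 to 3. As with Hmgcs1 and Acat2, placebo lay between DHT 2 and the other libraries labelled DHT. Its log2 fold change was −0.21 ± 0.44 (adjusted p = 0.85), and it turned to 0.10 without DHT 1 and to 0.077 without both libraries numbered 3.

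Idi1 encodes the isomerase that converts isopentenyl to dimethylallyl diphosphate (chromosome 13, 8885501 to 8892451). It had 61.2, 178 and 98.4 CPM in placebo and 15.8, 70.8 and 48.9 CPM in DHT 1 to 3. The groups met between placebo 1 and DHT 2, and the widest spread among the 9 genes was seen here, 2.90 times within placebo and 4.47 times within the libraries labelled DHT. Its difference was the largest of the 9: the log2 fold change was −1.53 ± 0.58 (adjusted p = 0.253), and −1.62 with the replicate block (adjusted p = 2e-05). In both groups libraries 1 and 2 were the lowest and the highest. The gene was called in 4 of 19 alternatives (adjusted p from 9.29e-07 to 0.541), all of them with the block. The lowest value came from the block fit without the libraries numbered 3, again with few libraries to estimate the spread. Windows shared with other genes made up 21.9% of its transcripts. Idi2, the related isomerase gene, had 0 counts in all 6 libraries.

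Fdps encodes farnesyl diphosphate synthase, at the branch towards sterols and prenyl groups (chromosome 3, 89093588 to 89101959). It had 197, 254 and 195 CPM in placebo and 72.1, 234 and 100.2 CPM in DHT 1 to 3. DHT 2 lay inside the placebo range and the other libraries labelled DHT far below it. The log2 fold change was −0.87 ± 0.43 (adjusted p = 0.363), and −1.03 with the replicate block (adjusted p = 0.0148). Windows shared with other genes made up 21.4% of its transcripts, most of them with Gm43738, a transcript over the same exons that was given 0 counts in every library.

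Ggps1 encodes geranylgeranyl diphosphate synthase, which extends farnesyl diphosphate for protein prenylation (chromosome 13, 14052449 to 14063401). It had 2.66, 3.47 and 7.12 CPM in placebo and 3.36, 3.85 and 6.70 CPM in DHT 1 to 3. Both libraries numbered 3 were high, and the remaining 4 were close together. The log2 fold change was −0.13 ± 0.45 (adjusted p = 0.913) and became 0.40 without placebo 3, so its sign is not settled. Exons of Arid4b on the other strand overlap 7.2% of its exon length.

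Fdft1 encodes squalene synthase, the first step committed to sterols (chromosome 14, 63145153 to 63177793). It had 249.8, 310.2 and 205 CPM in placebo and 90.2, 269 and 136 CPM in DHT 1 to 3. As with Fdps, DHT 2 lay inside the placebo range. The log2 fold change was −0.83 ± 0.41 (adjusted p = 0.363), and −0.94 with the replicate block (adjusted p = 0.0305). Exons of Ctsb, a cathepsin gene on the opposite strand, overlap 26.8% of the exon length of Fdft1, and without the strand setting their reads cannot be told apart. Ctsb itself had 565 to 803 CPM in placebo and 558 to 760 CPM in the libraries labelled DHT (log2 fold change −0.30 ± 0.27, adjusted p = 0.619).

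**Figure D2:**
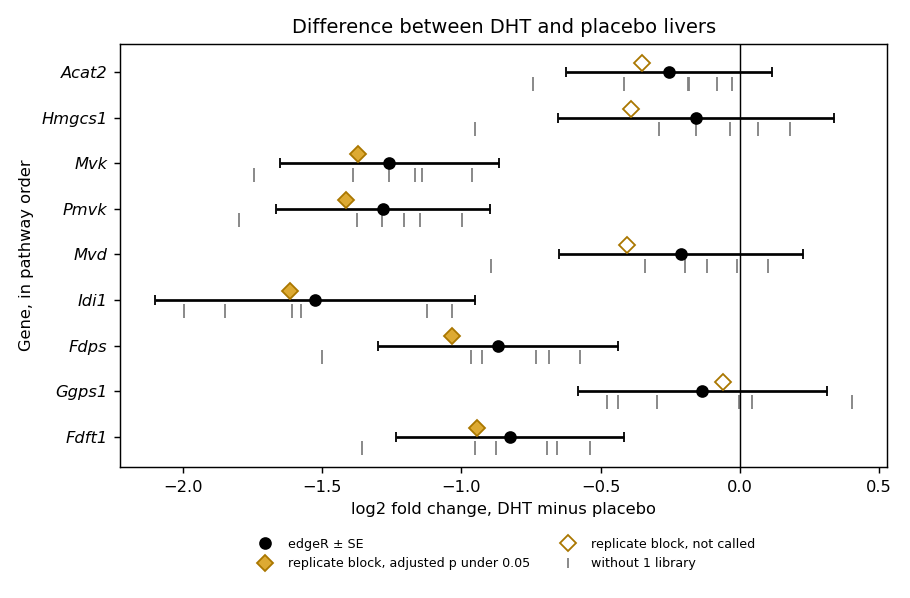
Log2 fold change of each gene, DHT minus placebo, by edgeR (black, ± SE), with the replicate block (diamonds, filled where the adjusted p was under 0.05) and with each of the 6 libraries left out (grey ticks). Acat2, Mvk, Pmvk, Idi1, Fdps and Fdft1 stay below 0 in every fit shown. The leftmost tick of 8 genes, all but Ggps1, is the fit without DHT 2.

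Leaving out DHT 2 moved these 8 genes downwards, to −1.74 for Mvk, −1.80 for Pmvk, −1.996 for Idi1, −1.50 for Fdps, −1.36 for Fdft1, −0.95 for Hmgcs1, −0.90 for Mvd and −0.74 for Acat2. With 2 libraries against 3, none of the 9 passed in that fit (lowest adjusted p = 0.0909, for Pmvk, among 84 calls over all genes), nor in any other fit that left out 1 library. Scaling by library size alone moved the median over all genes up by 0.19 on the log2 scale and the 9 values by about as much. It called 207 genes higher and 89 lower, against 144 and 106 with TMM. In that fit Hmgcs1 and Ggps1 lay above 0.

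Per kilobase of exon, the order of levels in placebo was Hmgcs1 (239 ± 44.9 CPM per kilobase, SD, n = 3), Fdft1 (89.2 ± 18.4), Pmvk (56.6 ± 4.61), Fdps (51.1 ± 7.97), Acat2 (49.7 ± 7.85), Idi1 (32.1 ± 17.0), Mvd (27.1 ± 3.33), Mvk (15.8 ± 2.89) and Ggps1 (1.87, between 1.12 and 3.01). Neighbours from Pmvk to Mvd in that order overlapped over their libraries, and the others did not. In the libraries labelled DHT, Hmgcs1 was again first and Mvk and Ggps1 last. Pmvk stood in place 6 there, at 26.8 ± 14.8 CPM per kilobase, behind Acat2, Fdps and Mvd, all within overlapping ranges. Hmgcs1 made up 38.1 to 46.8% of the summed level per kilobase in placebo and 48.8 to 56.6% in the libraries labelled DHT.

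Ratios within a library do not depend on how libraries are scaled. Mvk had 5.48, 5.45 and 5.51 counts per 100 counts of Hmgcs1 in placebo 1 to 3 and 2.94, 2.17 and 3.31 in DHT 1 to 3. The placebo values differed by less than 0.1 counts, and all 3 libraries labelled DHT lay below them, DHT 2 included. Pmvk had 11.0, 10.8 and 17.2 counts per 100 of Hmgcs1 in placebo and 6.95, 5.02 and 6.99 in DHT 1 to 3. Fdps (24.2 to 31.9 against 15.8 to 19.8) and Fdft1 (30.7 to 34.7 against 18.2 to 25.1) were separated in the same direction. Idi1 overlapped (7.52 to 19.9 against 4.34 to 9.04), as did Acat2, Mvd and Ggps1. The groups were thus separate with DHT lower in 4 of 8 genes, where the ratio to Hmgcs1 showed this in 1.44% of all genes tested. No gene of the 8 was separate with DHT higher, against 4.81% of genes. Hmgcs1 was taken as the denominator after its values were seen, and the ratios are given without a test. The shares over all genes depend on the spread of Hmgcs1 itself, 365 to 1481 CPM in the libraries labelled DHT. Genes that vary along with Hmgcs1 cancel that spread and other genes take it on, so these shares are no measure of chance.

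**Figure D3:**
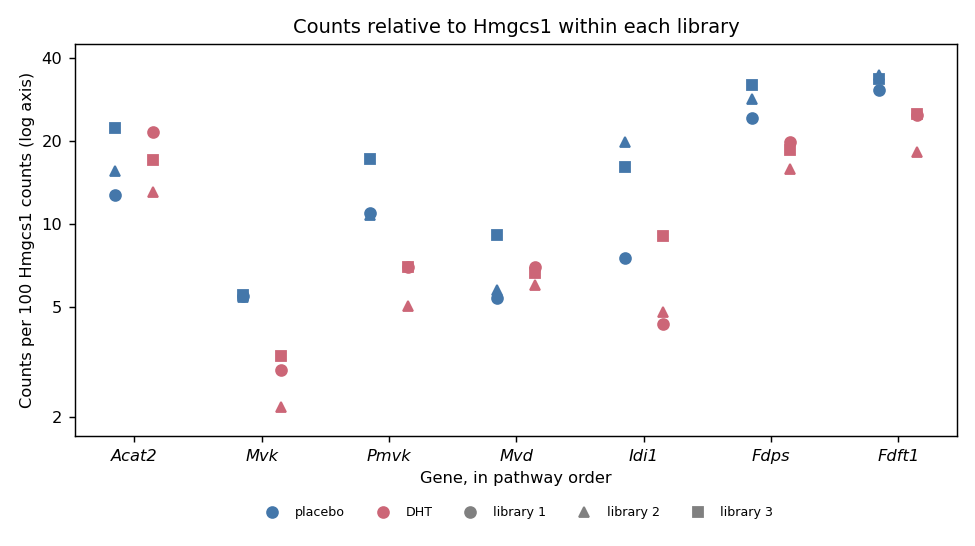
Counts of 7 genes per 100 counts of Hmgcs1 in the same library (log axis), for 3 placebo and 3 DHT libraries; Ggps1, at 0.260 to 1.24, is not drawn. The groups are separate for Mvk, Pmvk, Fdps and Fdft1, and the 3 placebo values of Mvk coincide.

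Mvk shares its promoter region with Mmab, a gene of cobalamin metabolism that runs the other way (chromosome 5, 114431034 to 114444060) and starts 209 bases from it. The Mvk sequence printed above covers this interval, so its NF-Y matches lie between both genes. Mmab had 21.9, 31.7 and 19.8 CPM in placebo and 20.2, 37.8 and 26.8 CPM in DHT 1 to 3, and its fold change was 0.01 ± 0.31 on the log2 scale (adjusted p = 0.991). Its sign changed in 10 of 19 alternatives. Among the libraries labelled DHT, Mmab was highest in DHT 2, like most of the chain, but the group levels overlapped. Mvk had 204, 153 and 170 counts per 100 of Mmab in placebo and 53.3, 85.0 and 66.9 in DHT 1 to 3. The groups were separate for this ratio with DHT lower, as for 4.52% of genes set against Mmab. Its exact two-sided permutation p was 0.1, the smallest that 3 against 3 libraries can give. Separate groups always give that value, so it adds nothing to the separation.

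The 12 genes that turn squalene into cholesterol follow in the chain. None was called higher or lower by edgeR, 5 had an unadjusted p under 0.05, all lower, limma voom called 1 lower and DESeq2 called 2. All 12 log2 fold changes were below 0, with a median of −1.02, and with the replicate block 6 of 12 were called lower. In the block fits without the libraries numbered 1, 2 or 3 that count was 0, 8 and 7. Lbr, a sterol reductase of the inner nuclear membrane, had 13.4, 16.5 and 14.9 CPM in placebo and 7.36, 9.61 and 8.08 CPM in DHT 1 to 3 (log2 fold change −1.03 ± 0.24, adjusted p = 0.0872). It was called in 6 of 19 alternatives, among them the replicate block (adjusted p = 0.00852), limma voom (0.0377), DESeq2 (0.00266) and the fit without placebo 3 (0.0304), but not in the block fit without the libraries numbered 1 (0.132). Ebp, a sterol isomerase gene, had 348, 344 and 296 CPM in placebo and 214, 210.5 and 242 CPM in DHT 1 to 3 (−0.76 ± 0.24, adjusted p = 0.181). DHT 2 exceeded both other libraries of its group by more than 1.5 times in 7 of these 12 genes, as in 7 of the 9 upstream ones. Lbr and Ebp were not among them. Relative to Hmgcs1, 5 of 12 were separate with DHT lower.

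**Figure D4:**
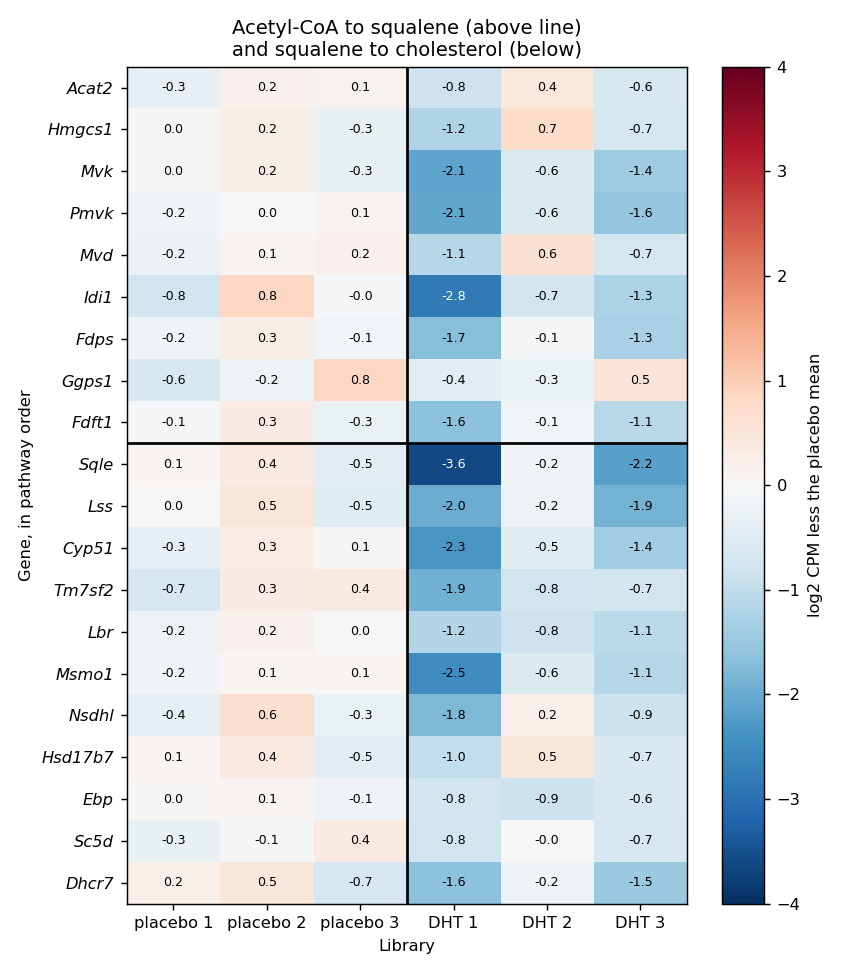
Log2 CPM (TMM-scaled, prior count 2) of each gene less its placebo mean, in the 6 libraries, for the 9 genes up to squalene (above the line) and 11 of the 12 beyond it (below). DHT 1 is the bluest column for most genes, down to −3.60 for Sqle, and DHT 2 lies above the placebo mean for Acat2, Hmgcs1, Mvd, Nsdhl and Hsd17b7.

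Among 11 tested genes that control SREBP, 1 rose and 0 fell. Insig2, which encodes a protein that retains SREBP in the endoplasmic reticulum, had 48.4, 52.1 and 90.9 CPM in placebo and 485, 537 and 511 CPM in DHT 1 to 3. The 3 libraries labelled DHT were alike and 6.99-fold above placebo by the fit (log2 fold change 2.81 ± 0.33, adjusted p = 0.00861). It was called in all 19 alternatives (highest adjusted p = 0.0492), and its 3 DHT values lay closer together than those of the mevalonate genes. Insig1, its sterol-responsive relative, had 575, 679.8 and 1091 CPM in placebo and 419.7, 737 and 434 CPM in DHT 1 to 3 (−0.76 ± 0.36, adjusted p = 0.35). In DHT 2 it was highest within its group. For Srebf2, which encodes SREBP-2 and was named after its values were seen, the estimate was −0.48 ± 0.48 (adjusted p = 0.649).

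A further list holds 19 genes for the use of isoprenoids from the chain, such as protein prenylation and ubiquinone and dolichol synthesis. Of these 19, 0 were called, and 1 had an unadjusted p under 0.05. Their median log2 fold change was −0.016. Pdss2, a subunit of the synthase for the ubiquinone side chain, had 7.99, 8.18 and 7.06 CPM in placebo and 15.6, 16.2 and 15.2 CPM in DHT 1 to 3. The groups were far apart relative to their spread, but its log2 fold change of 0.83 ± 0.22 passed neither in edgeR (adjusted p = 0.128) nor in any fit that left out 1 library. It passed with the replicate block (adjusted p = 0.0426), in limma voom and in DESeq2. In the block fits without the libraries numbered 1, 2 or 3 it did not pass, at adjusted p = 0.323, 0.0915 and 0.0566. Trit1, a tRNA isopentenyltransferase gene, had 5.71 to 9.83 CPM in placebo and 11.3 to 14.8 CPM in the libraries labelled DHT (0.56 ± 0.28, adjusted p = 0.37).

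The list of relatives of the chain's enzymes includes mitochondrial and peroxisomal thiolases. Of 10 tested, 1 rose and 0 fell (2 and 0 with the replicate block), and the median log2 fold change was 0.48. Acaa1b, a peroxisomal thiolase gene, had 472, 655 and 385 CPM in placebo and 2186, 2089 and 1639 CPM in DHT 1 to 3 (1.78 ± 0.31, adjusted p = 0.0332). It was called in 14 of 19 alternatives. Leaving out any library other than placebo 3 ended the call, with an adjusted p of at most 0.153.

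The genes outside the list whose profile over the 6 libraries was most like the mean profile of the 9 were ranked among 11961 genes with at least 1 CPM on average. The measure was the root mean square difference of log2 CPM, each gene centred on its own mean. Rdh11, a retinol dehydrogenase gene, was closest, at 0.14. It was followed by Gm3571 (0.21), Morn1 (0.21), Fam117a (0.24), Per2 (0.26), Ppp3cc (0.26), Cenpm (0.26) and Tmem97 (0.26). Gm3571 shares transcript sequence with Fdps, so that its counts may include reads of Fdps. Of the 9 genes themselves, Fdps (0.16) and Fdft1 (0.17) were closest to their common mean, while Idi1 (0.58) and Ggps1 (0.75) ranked 1512 and 6242. On the common profile, values were 0.17, 0.64 and 0.46 in placebo 1 to 3 and −1.13, 0.36 and −0.49 in DHT 1 to 3.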

How the data were processed

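The authors deposited 1 table of raw gene counts per library, 49212 genes each, with exon positions and lengths, per the file headers. The build GRCm38, Trimmomatic 0.36, STAR 2.5.2b, featureCounts and Subread 1.5.2 are listed, per the submitters' processing notes. The strand setting, the handling of multimapping reads and the counting of pairs were not stated in these sources, so counts of overlapping genes and near-identical copies are uncertain.

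CPM in the text is the count divided by the library total. Using edgeR 4.0.16 (R 4.3.3), genes were filtered by filterByExpr, libraries were scaled by TMM (factors 0.921 to 1.08) and DHT was tested against placebo with the robust quasi-likelihood test over 15126 genes, with Benjamini-Hochberg adjustment and a threshold of 0.05. The standard error is the log2 fold change divided by the square root of F. The procedure was tested on simulated data. Alternatives were other scalings and filters, a fit that was not robust, limma 3.58.1 voom, DESeq2 1.42.0, each library left out, both libraries numbered 3 left out, and the replicate number as a block. Added after seeing the data was that block with each number left out in turn. Such block fits estimate many terms from few libraries, so their small adjusted p-values are weak evidence.

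The titles number the libraries 1 to 3 in both groups without naming a common litter or batch. Across genes, departures from group means correlated between same-numbered libraries at 0.25, 0.15 and 0.60, each above 0.1, so the block value is given beside a result whose call it changes. Placebo 1 and placebo 2 correlated more with DHT 2 (0.29) and DHT 1 (0.44) than with their own numbers.

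The 9 genes and all lists were chosen with earlier results of these data known. Named besides the 9 are, of each pathway list, called genes and the 2 with the smallest p, genes that overlap or start next to a member, and the 8 with the most similar profile; some genes that this rule names are not reported here. Tf of the hepatocyte list and Spring1 of the SREBP list had no row of that name. Promoters were matched by symbol to RefSeq.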

Additional observations from a re-analysis of the deposited data

How the results depend on the processing

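The direction of Acat2, Mvk, Pmvk, Idi1, Fdps and Fdft1 was kept in all 19 alternatives. Ggps1, with 160 to 376 counts per library, had the fewest counts of the 9. Against 0 in the main fit, genes of the 9 called lower numbered 5 with the replicate block, 2 in DESeq2, and 1, 5 and 3 in the block fits without the libraries numbered 1, 2 and 3. They stayed at 0 in the others.

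Calls over all genes, 250 in the main fit, were 521 without a low-count filter, 1621 with the replicate block, 707 in limma voom, 1062 in DESeq2, 448 without both libraries numbered 3, and 84 to 862 with 1 library left out (without DHT 2 and without placebo 3). In the block fits without the libraries numbered 1, 2 and 3 they were 827, 1771 and 1371. Of the squalene to cholesterol genes, 0 in the main fit, 6 were called lower with the replicate block, 1 in limma voom, 2 in DESeq2, 0 to 1 with 1 library left out (1 without placebo 3), and 0, 8 and 7 in the block fits without the libraries numbered 1, 2 and 3. Of the SREBP control genes, 0 to 1 were called lower with 1 library left out (1 without placebo 3). Of the isoprenoid use genes, 1 was called higher with the replicate block, in limma voom and in DESeq2 (Pdss2 in each), and 1 in the block fit without the libraries numbered 2 (Icmt, chosen after its values were seen).

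Signs turned for Hmgcs1 with library size alone (0.042), in the block fit without the libraries numbered 1 (0.044) and over the fits without 1 library (−0.95 to 0.18). They turned for Mvd without both libraries numbered 3 (0.077) and over the fits without 1 library (−0.90 to 0.10). For Ggps1 they turned with library size alone (0.069), in limma voom (0.11), without both libraries numbered 3 (0.061), in the block fit without those libraries (0.075) and over the fits without 1 library (−0.48 to 0.40). For Mmab they turned with DESeq2 size factors (−0.017), with the filter of 1 CPM in 3 libraries (−0.0010), in limma voom (−0.031), in DESeq2 (−0.017), without both libraries numbered 3 (−0.068), in the block fits without the libraries numbered 2 (−0.011) and 3 (−0.099), and over the fits without 1 library (−0.24 to 0.24). The cause was not tested.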

Other observations

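Of 15 tested genes that respond to sterols or move them outside the synthesis chain, 0 rose and 1 fell by edgeR's quasi-likelihood test. Cyp7a1, the rate-limiting enzyme of bile acid synthesis from cholesterol, had 293, 284 and 196 CPM in placebo and 37.1, 32.9 and 52.8 CPM in DHT 1 to 3. Its log2 fold change was −2.84 ± 0.31 (adjusted p = 0.00518) and was called in all 19 alternatives (highest adjusted p = 0.0364). The 3 libraries labelled DHT were close together, with DHT 2 lowest, unlike in the mevalonate genes. Npc2, a lysosomal cholesterol carrier gene, had 114, 105 and 147 CPM in placebo and 66.0, 82.5 and 70.6 CPM in DHT 1 to 3 (log2 fold change −0.93 ± 0.25, adjusted p = 0.128). With the replicate block its adjusted p was 0.0196, and 0.203 and 0.138 in the block fits without the libraries numbered 1 and 3. With the replicate block 5 of the 15 were called lower.

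The clock genes moved between the same libraries: of 12 tested, 3 rose and 4 fell (4 and 4 with the replicate block). Npas2 had 0.0364 to 0.0757 CPM in placebo and 2.18 to 3.19 CPM in the libraries labelled DHT, and Ciart had 7.22 to 9.78 against 0.827 to 1.95 CPM. Of the 12 clock genes, 0 had DHT 2 above both other DHT libraries by 1.5 times. Over all genes tested the share was 4.12%, so a count of 0 is unremarkable for a list of this size. Per2 was among the 8 genes most like the mean profile of the 9. The part of these genes, and of the Y-linked signal, in the levels of the mevalonate genes was not tested.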
